A study of Mus musculus with 20 samples.

Results

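Calcitonin gene-related peptide (CGRP) and adrenomedullin are related peptides that act on one shared receptor, the G protein-coupled calcitonin receptor-like receptor encoded by Calcrl. The receptor works only together with a small membrane partner, a receptor activity-modifying protein (RAMP). With RAMP1 it is the CGRP receptor, and with RAMP2 or RAMP3 it binds adrenomedullin, so the set of RAMPs in a cell decides which peptide it answers. CGRP is known as a vasodilator and a transmitter of sensory and motor neurons, and adrenomedullin as a vasodilator that is needed for vessel growth.

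The genes considered were the RAMPs Ramp1, Ramp2 and Ramp3, the receptor Calcrl, the CGRP genes Calca and Calcb, and the adrenomedullin gene Adm. Members were all probe sets that the platform annotation pairs with one of these 7 symbols alone, which gave 11 of the 45037 probe sets tested, for 6 genes. Ramp1 and Calcrl had 3 probe sets each, Adm had 2, and Ramp2, Ramp3 and Calcb had 1 each. Calca was not named in the table and is not analysed here, and 2 further probe sets that carry both Ramp2 and the symbol of another gene were not used.

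RNA of whole brains was measured on Affymetrix whole-genome mouse expression arrays at postnatal day 3, from 10 WT pups and 10 HDAC4 KO pups. In the knock-out colony, heterozygous males were crossed back to B6CBAF1/OlaHsd females, and HDAC4 KO pups were homozygotes from intercrosses. The sources used here do not say from which matings the WT pups came, and they name no treatment for either genotype. By the labels each genotype held 5 males and 5 females. No source used here gives the deleted part of Hdac4, the litters or a scan batch, so p-values measure the spread between these arrays.

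Values are log2 signals as deposited, and the array medians lay between 6.26 and 6.32. Hdac4 itself was lower in HDAC4 KO brains at each of its 3 probe sets, with log2 fold changes of −1.39, −1.19 and −0.46. Of 8 neuron markers, all 8 lay above the array median in every array, as brain tissue should show, and none was called. By the brightest probe set their median log2 fold change was 0.00, with 1 higher at an unadjusted p under 0.05 in limma. Slc17a7 stood at 0.33 (adjusted p = 0.108 in limma), Stmn2 at 0.03, Neurod6 at −0.08 and Eno2 at 0.05. The sex-linked genes went against the sex label in 3 arrays (WT replicates 5 and 9 and HDAC4 KO replicate 10). WT replicate 8 and HDAC4 KO replicate 10 lay nearest to the other genotype at Hdac4. For the members and the listed genes, results are also given without these arrays where a call changes. Signals of different probe sets share no scale, so no level of one gene is set against that of another. In whole-brain RNA, fewer cells that express a gene cannot be told apart from less RNA per cell.

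Upstream sequences from RefSeq (GRCm38.p6) were at hand for 5 of the 7 genes. The 250 bases before the annotated start are shown for the 4 of these genes that were measured, because HDAC4 acts through transcription factors that bind near genes and adrenomedullin is a known hypoxia-induced gene. Each is written 5′ to 3′ on the strand of the gene, with motif matches in capitals. Ramp1 lies at chr1:91179572-91179821 (+), Ramp3 at chr11:6658283-6658532 (+), Calcrl at chr2:84425267-84425516 (−) and Adm at chr7:110627407-110627656 (+).
Ramp1: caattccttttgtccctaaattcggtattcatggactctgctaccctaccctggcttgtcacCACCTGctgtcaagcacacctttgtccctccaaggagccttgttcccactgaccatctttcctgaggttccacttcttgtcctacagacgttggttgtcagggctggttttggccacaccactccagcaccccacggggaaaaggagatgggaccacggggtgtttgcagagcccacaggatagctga
Ramp3: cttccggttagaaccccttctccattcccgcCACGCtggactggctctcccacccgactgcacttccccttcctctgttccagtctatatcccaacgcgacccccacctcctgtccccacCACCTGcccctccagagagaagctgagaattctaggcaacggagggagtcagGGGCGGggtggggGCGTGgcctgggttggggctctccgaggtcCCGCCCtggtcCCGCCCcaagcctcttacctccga
Calcrl: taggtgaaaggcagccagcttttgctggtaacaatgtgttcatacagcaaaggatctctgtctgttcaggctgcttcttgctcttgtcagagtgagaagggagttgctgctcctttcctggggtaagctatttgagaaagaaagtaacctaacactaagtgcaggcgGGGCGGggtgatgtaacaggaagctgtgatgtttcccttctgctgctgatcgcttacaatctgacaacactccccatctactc
Adm: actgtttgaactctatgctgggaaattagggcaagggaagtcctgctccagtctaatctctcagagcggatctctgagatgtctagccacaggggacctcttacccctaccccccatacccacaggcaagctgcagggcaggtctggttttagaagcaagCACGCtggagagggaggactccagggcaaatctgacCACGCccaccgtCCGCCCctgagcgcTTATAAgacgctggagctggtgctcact

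The motifs searched on both strands were MEF2, the half-site TGACG of the cAMP response element, the hypoxia response cores ACGTG and GCGTG, the GC box GGGCGG, the E-box CANNTG and TATAA. An E-box of the form CACGTG also holds ACGTG. The single match upstream of Ramp1 was an E-box, which 66.2% of all 32851 promoters of that length hold. Ramp3 had 1 E-box, 2 matches of GCGTG (28.2% of promoters) and 3 GC boxes (32.7%), and Calcrl had 1 GC box. Adm had 2 matches of GCGTG, 1 GC box and TATAA (22.8%), which lay 22 bases before the start at its nearest. None of the 4 windows held a match of MEF2 (2.92% of promoters) or of TGACG (17.8%). The window of Calca, which was not measured, held 1 match of MEF2, 174 bases before the start, and 1 of TGACG. These letters say nothing on binding outside the window or through other factors.

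Ramp1, whose product turns the shared receptor into the CGRP receptor, was higher in HDAC4 KO brains at 2 of its 3 probe sets, by 37.4% and 30.9%. These were the only 2 of the 11 member probe sets called at an adjusted p under 0.05 from limma, where 2.06% of all probe sets were called (1.05% higher and 1.01% lower). No member probe set was called lower. The median log2 fold change of the 11 was −0.05, against 0.00 over all probe sets.

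At the brightest Ramp1 probe set, 1417481_at, the log2 signal ran from 9.14 over a median of 9.66 to 9.97 in WT and from 9.88 over 10.06 to 10.17 in HDAC4 KO brains. The genotypes overlapped narrowly, since 7 of 10 HDAC4 KO arrays lay above every WT array and all 10 lay above the WT mean. The means were 9.58 ± 0.29 (SD, n = 10) and 10.04 ± 0.10 (SD, n = 10). In limma the log2 fold change came to 0.46, with a 95% interval of 0.27 to 0.65 (SE 0.09) and an adjusted p of 0.0181. The WT arrays were spread more widely than the HDAC4 KO arrays, and the highest WT array was replicate 8.

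The second probe set, 1431413_at, was dim, below the array median in every array. Its log2 signal ran from 4.99 over 5.41 to 5.70 in WT and from 5.44 over 5.82 to 6.03 in HDAC4 KO brains. Of the HDAC4 KO arrays, 8 lay above every WT array. The log2 fold change of 0.39 had a 95% interval of 0.21 to 0.56 (SE 0.08) and passed with an adjusted p of 0.0225.

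The third probe set, 1447474_at, went the other way, from 5.38 ± 0.17 (SD, n = 10) to 5.16 ± 0.12 (SD, n = 10). All 10 HDAC4 KO arrays lay below the WT mean, yet the log2 fold change of −0.22 (SE 0.06) missed the threshold (adjusted p = 0.0719). It too was dim in every array. The probe sets of a gene were compared by the difference of their signals within each array, over 7 pairs in Ramp1, Calcrl and Adm. The change at the third Ramp1 probe set differed from that at the first by 0.68 on the log2 scale (two-sided permutation test, p = 3e-05, adjusted p = 0.00021) and from that at the second by 0.61 (permutation p = 0.00016, adjusted p = 0.00056). The changes at the first and the second differed by 0.07 (permutation p = 0.325, adjusted p = 0.379). The sources used here do not say which Ramp1 transcripts each probe set reads.

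**Figure D1:**
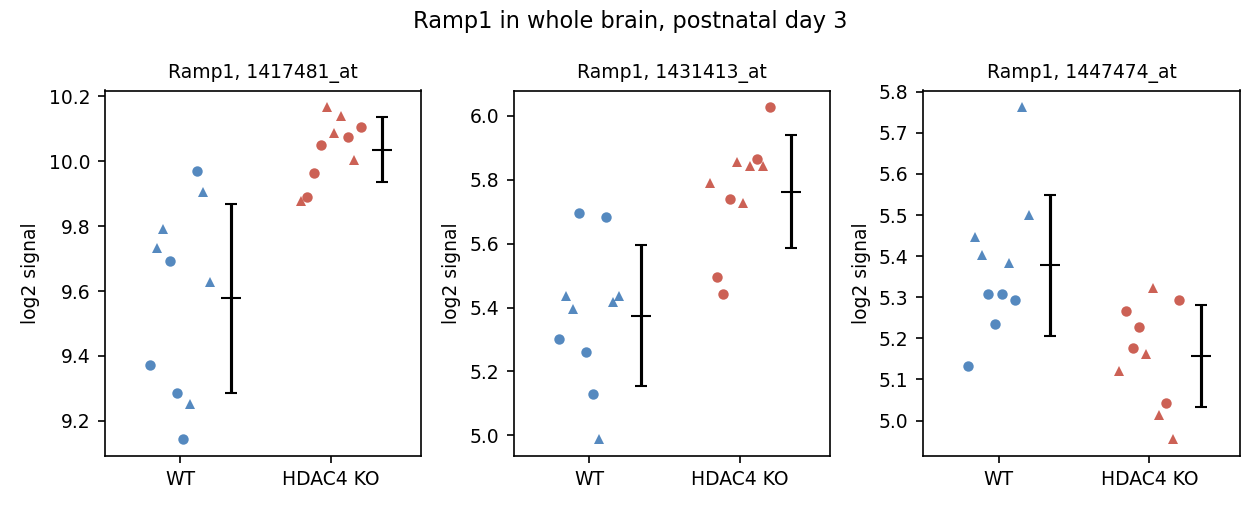
Log2 signal of Ramp1 at its 3 probe sets by genotype. Points are arrays, with blue for WT, red for HDAC4 KO, circles for pups labelled male and triangles for those labelled female, and bars mark mean ± SD over 10 arrays. The first 2 probe sets lie higher in HDAC4 KO brains and the third lies lower, with overlap in each plot.

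The call at the brightest probe set held when any single array was left out (adjusted p from 0.00772 to 0.0378) and without WT replicate 8 and HDAC4 KO replicate 10 together (log2 fold change 0.49, adjusted p = 0.0254). It was lost with the 3′ minus 5′ signal of the control probe sets, a measure of RNA integrity, as a covariate, where the log2 fold change was 0.50 (adjusted p = 0.0503). Across 10 WT arrays that measure averaged 0.19 ± 0.03 (SD), and across 10 HDAC4 KO arrays 0.22 ± 0.03 (SD; two-sided permutation test, p = 0.0823), and its part in the result was not tested. The second probe set also lost its call with that covariate (0.40, adjusted p = 0.0841) and without the 3 arrays that went against their sex label (0.35, adjusted p = 0.0711).

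Ramp3, which makes the receptor bind adrenomedullin and can also pair with other receptors, had the next largest positive value. Its log2 signal ran from 8.15 over 8.29 to 8.51 in WT and from 8.22 over 8.53 to 8.76 in HDAC4 KO brains, so that 6 HDAC4 KO arrays lay above every WT array and 9 above the WT mean. The log2 fold change was 0.21 (SE 0.06, 95% interval 0.07 to 0.34) and did not pass (adjusted p = 0.0916). Only without HDAC4 KO replicate 3, the lowest of its group, was it called (0.24, adjusted p = 0.0408).

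Ramp2, the RAMP of the main adrenomedullin receptor of vessels, ran from 9.30 over 9.42 to 9.50 in WT and from 9.25 over 9.38 to 9.47 in HDAC4 KO brains. The arrays of both genotypes covered nearly one range. Their log2 fold change of −0.03 had a 95% interval of −0.11 to 0.05 (SE 0.04) and an adjusted p of 0.740.

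Calcrl, the receptor all 3 RAMPs serve, was measured well by a single probe set. At 1425814_a_at the log2 signal ran from 7.24 over 7.47 to 7.81 in WT and from 7.08 over 7.42 to 7.56 in HDAC4 KO brains, with 3 WT arrays above every HDAC4 KO array. At −0.11, the log2 fold change had a 95% interval of −0.27 to 0.04 (SE 0.07, adjusted p = 0.434). The other 2 Calcrl probe sets had mean signals between 2.98 and 3.80, below the array median in every array, with log2 fold changes of 0.04 (adjusted p = 0.847; its sign turned when HDAC4 KO replicate 10 was left out) and −0.05 (adjusted p = 0.559).

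Of the ligands, Calcb, which encodes a second form of CGRP, had the widest spread of all members. It ran from 3.90 over 5.17 to 5.57 in WT and from 4.16 over 4.78 to 5.61 in HDAC4 KO brains. The difference of −0.26 on the log2 scale was within this spread (SE 0.19, 95% interval −0.65 to 0.14, adjusted p = 0.516). Without WT replicate 1, the lowest array, it was −0.39 (adjusted p = 0.180).

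Adm, the adrenomedullin gene, had negative values at both of its probe sets, and both lay below the array median in every array. At 1416077_at it ran from 5.34 over 5.55 to 5.89 in WT and from 5.18 over 5.44 to 5.61 in HDAC4 KO brains, with 9 HDAC4 KO arrays below the WT mean. There the log2 fold change stood at −0.16 (SE 0.07, adjusted p = 0.200), and at 1447839_x_at it was −0.07 (SE 0.05, adjusted p = 0.513). At an unadjusted p under 0.05 stood 5 of the 11 member probe sets, where 18% of all probe sets did: the 3 of Ramp1, that of Ramp3 and 1416077_at of Adm.

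**Figure D2:**
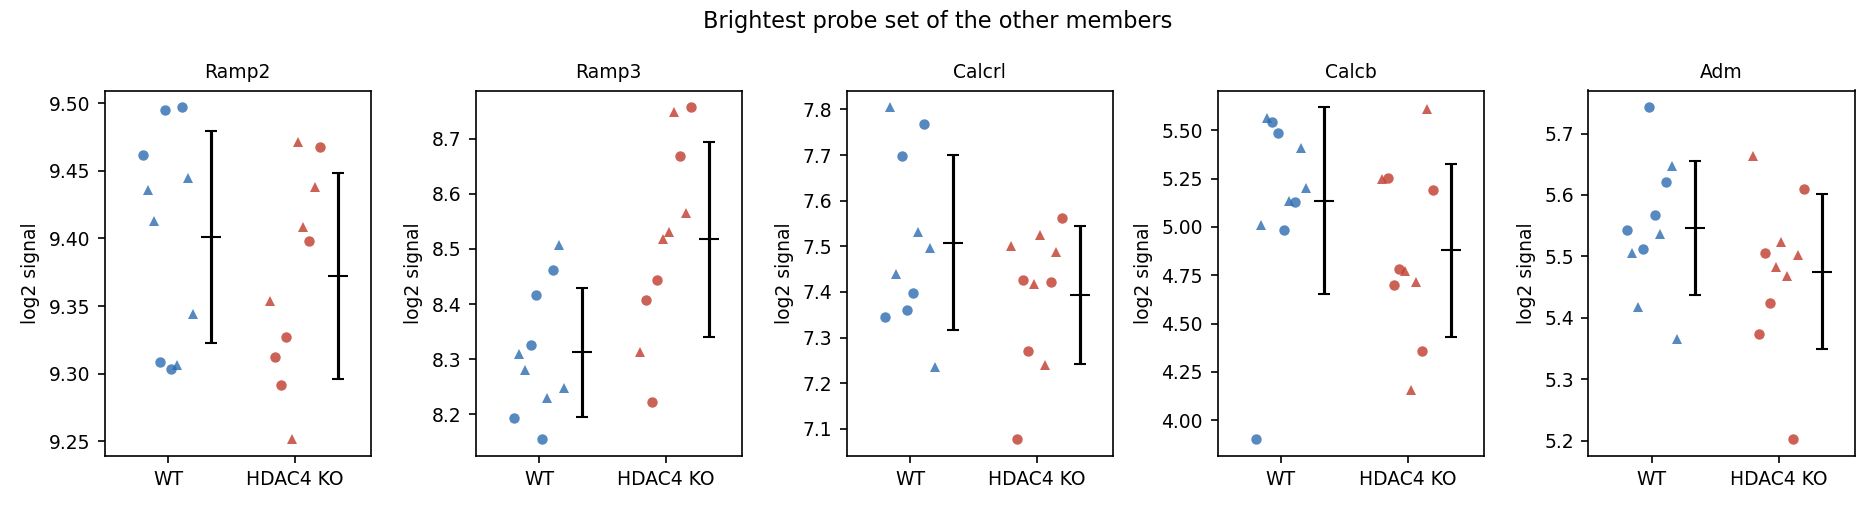
Log2 signal of Ramp2, Ramp3, Calcrl, Calcb and Adm at the brightest probe set of each, by genotype (circles for pups labelled male, triangles for those labelled female, bars at mean ± SD over 10 arrays, each plot with its own axis). The arrays of both genotypes overlap in all 5 plots, and Ramp3 shows 6 HDAC4 KO arrays above every WT array.

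The change of Ramp1 was compared with that of each other member at the brightest probe sets, as the difference of the signals within each array. Ramp1 was the only member gene called in these same arrays. The p-values of this comparison make no allowance for its choice as the reference. Against Ramp2 the Ramp1 change was larger by 0.49 on the log2 scale (two-sided permutation test, p = 1e-05, the smallest 100000 resamples can give; adjusted p = 5e-05 over 5 pairs). Against Calcrl the difference was 0.57 (permutation p = 3e-05, adjusted p = 7.5e-05) and against Adm it was 0.53 (permutation p = 7e-05, adjusted p = 0.000117). In these 3 comparisons all 10 HDAC4 KO arrays lay above the WT mean of the difference. Against Calcb it was 0.72 (permutation p = 0.00544, adjusted p = 0.00547), with 9 of 10 arrays above. Against Ramp3 it was 0.25 (permutation p = 0.00547, adjusted p = 0.00547), with 10 of 10 above, but with the mean of all probe sets of each gene in place of the brightest the difference was 0.00 (permutation p = 0.950, adjusted p = 0.950). By that mean the Ramp1 change itself was 0.21. The other 4 differences were then smaller but still passed, at 0.24 against Ramp2 (permutation p = 0.00074, adjusted p = 0.00123), 0.25 against Calcrl (permutation p = 0.00019, adjusted p = 0.000925), 0.32 against Adm (permutation p = 0.00037, adjusted p = 0.000925) and 0.47 against Calcb (permutation p = 0.0369, adjusted p = 0.0461).

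**Figure D3:**
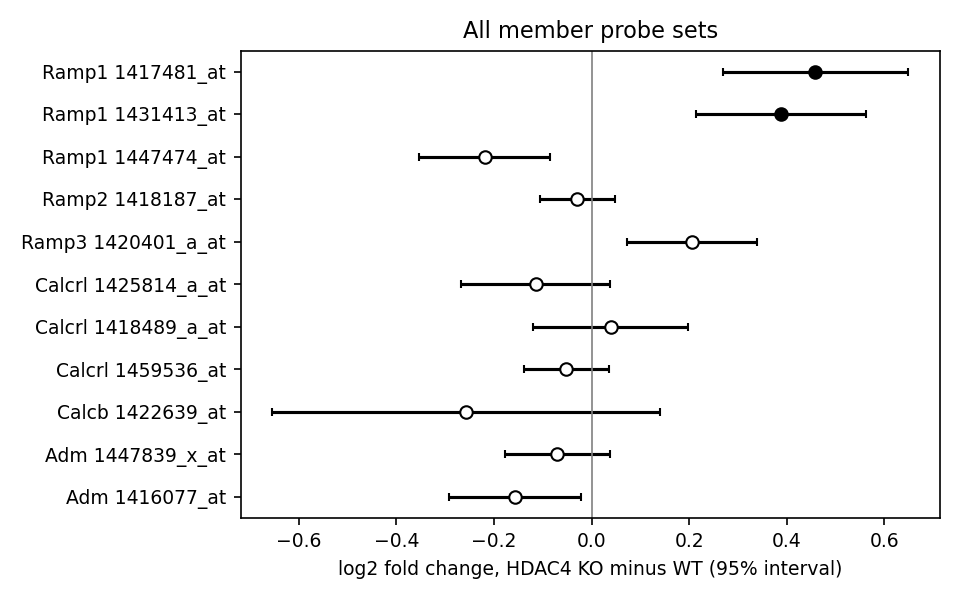
Log2 fold change (HDAC4 KO minus WT, 10 arrays each) of the 11 member probe sets with the 95% interval of limma. Filled points passed at an adjusted p under 0.05; they are the brightest 2 Ramp1 probe sets, at 0.46 and 0.39, while the third stands at −0.22.

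By labelled sex, the log2 fold change at the brightest Ramp1 probe set came to 0.52 (SE 0.13) in males and 0.39 (SE 0.13) in females, and their difference of −0.13 had a 95% interval of −0.52 to 0.25 (limma interaction, adjusted p = 0.971). The second had 0.30 in males and 0.48 in females. At the third, the values were −0.05 (SE 0.08) in males and −0.38 (SE 0.08) in females, a difference of −0.33 (unadjusted p = 0.00574, adjusted p = 0.915). No interaction passed in limma at any of the 11 member probe sets (2 at an unadjusted p under 0.05), as at 0% of all probe sets. Within either sex limma called none of the 11, with 3 in males and 4 in females at an unadjusted p under 0.05, and 0.0377% and 0.04% of all probe sets called. Without the 3 arrays that went against their sex label, the difference at the third was −0.24 (adjusted p = 0.572) and that at the brightest 0.00.

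Over the 20 arrays, after the genotype mean was taken off each, the 15 pairs of members had correlations from −0.14 (Ramp1 with Adm) to 0.61. Pearson's r was 0.61 for Ramp2 with Ramp3, 0.54 for Ramp1 with Ramp3, 0.42 for Ramp1 with Calcrl and 0.27 for Ramp2 with Calcrl at the brightest probe sets. For Calcb it lay between −0.10 (with Ramp2) and 0.22 (with Adm), and for Adm with Ramp2 and Calcrl it was 0.32 and 0.30. These arrays share one normalization, and the values are a description. The genes most like Ramp1 by this measure were Plekhb1, Ninj1 and Igdcc4 (r between 0.848 and 0.852). For Ramp2 they were Sgk3, Fam220a and Cdc34 (0.815 to 0.853), for Calcrl Cd82, Pdgfra and Rbm45 (0.807 to 0.847), and for Adm Cd79b, Pm20d2 and Ugt2b34 (0.792 to 0.829). None of these 12 genes was called between the genotypes at the probe set concerned, where 2.06% of all probe sets were.

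Ramp1 lies on chromosome 1, which also carries Hdac4, and no other member does. In the RefSeq order of protein-coding genes, Hdac4 is gene number 12 counted from Ramp1. Of the 11 genes between them 9 were measured, and 3 of their 22 probe sets were called, where 2.06% of all probe sets were: 1 of Scly, a selenocysteine lyase, was higher (log2 fold change 0.18, adjusted p = 0.0486), and 1 each of Ube2f and Asb1 was lower. The brightest probe sets of Ube2f and Asb1 stood at −0.02 and 0.00. Within 20 places of Ramp1 on either side, 26 of 39 other genes besides Hdac4 were measured, and 5 of their 53 probe sets were called, the further ones being 1 of Sh3bp4 (higher) and 1 of Agap1 (lower). Rbm44, the next gene on the far side, had −0.14 (adjusted p = 0.173). Among the brightest probe sets of the genes from 20 places before Ramp1 to Hdac4, that of Ramp1 had the largest increase. Beyond Hdac4, at place 31 from Ramp1, the brightest probe set of Kif1a was lower (log2 fold change −0.51, adjusted p = 5.28e-06 in limma). The part of this neighbourhood in the Ramp1 result was not tested.

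**Figure D4:**
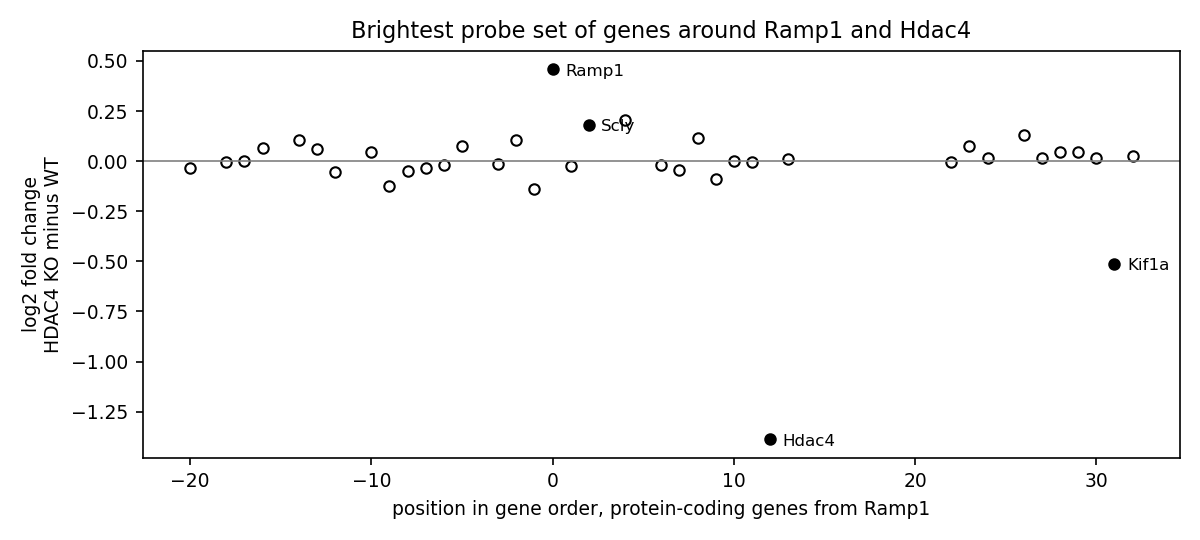
Log2 fold change of the brightest probe set of each measured protein-coding gene around Ramp1 (position 0) and Hdac4 (position 12) in RefSeq order. Filled points passed at an adjusted p under 0.05: Ramp1 at 0.46, Scly at 0.18, Hdac4 at −1.39 and Kif1a at −0.51.

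The list of other ligands and receptor partners gave no call. It also holds receptors for other ligands, among them Vipr1, Pth1r and Gcgr. Of 15 measured genes, none passed in limma at any of 23 probe sets (1 higher and 1 lower at an unadjusted p under 0.05 by the brightest probe set). The median log2 fold change was 0.00, against 0.01 over all genes by the brightest probe set, of which 1.96% were called. Crcp, the receptor component protein that couples the CGRP receptor to its G protein, stood at −0.01 (SE 0.03, adjusted p = 0.864). Calcr, the calcitonin receptor, which also pairs with RAMPs, stood at −0.17 (SE 0.07, adjusted p = 0.211). Adm2, a further ligand, stood at −0.02 (adjusted p = 0.921). The receptors for other ligands stood at 0.22 for Vipr1 (adjusted p = 0.147), 0.10 for Pth1r and 0.11 for Gcgr.

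Below the receptor, which raises cyclic AMP through the stimulatory G protein, 25 genes were measured. By the brightest probe set 1 was higher and none lower, with a median of 0.07, against 1.45% higher and 0.517% lower over all genes. At an unadjusted p under 0.05 in limma stood 11 higher and 3 lower of the 25, the most of any list, in the longest list. Of all probe sets, dim ones included, 18% stood there in either direction. All 25 genes lay above the array median in every array. The 1 called gene was Prkacb, a catalytic subunit of protein kinase A, at 0.11 (SE 0.03, adjusted p = 0.0439). Its other 2 probe sets had negative values that were not called, −0.38 at 1420610_at (adjusted p = 0.137) and −0.14 at 1457197_at (adjusted p = 0.195). Of all 76 probe sets, 4 were higher and 1 lower. The others that rose were dimmer probe sets of Adcy1, an adenylyl cyclase of neurons (0.22, adjusted p = 0.0213), of Gnaq (0.13, adjusted p = 0.0313) and of Grk6, a receptor kinase (0.12, adjusted p = 0.0474). The one that fell was a dimmer probe set of Prkar2b, a regulatory subunit of protein kinase A (−0.31, adjusted p = 0.0313). A further dim probe set of Grk6 stood at −0.08 (adjusted p = 0.227). Further Gnaq probe sets stood at 0.08, −0.07, −0.08, −0.06 and −0.002, none of them called. At the brightest probe sets the values were 0.16 for Adcy1 (adjusted p = 0.0562), 0.04 for Gnaq, 0.09 for Grk6 and −0.11 for Prkar2b, and Gnas, the stimulatory G protein itself, stood at 0.05 (adjusted p = 0.273). Each of these 5 calls was lost with the 3′ minus 5′ covariate (adjusted p from 0.0747 to 0.164). Without the 3 arrays against their sex label, those of Prkacb (adjusted p = 0.0561), Adcy1 (0.0535), Grk6 (0.0934) and Prkar2b (0.0727) were lost, and without WT replicate 8 and HDAC4 KO replicate 10 those of Prkar2b (0.0589) and Grk6 (0.109). Some were lost in other alternatives too. Adcy1 passed in 30 of 32, Gnaq in 23 of 32, Prkar2b in 20 of 32, Prkacb in 16 of 33 and Grk6 in 10 of 32.

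Of 9 genes that process or break down such peptides, Pam rose and the other 8 gave no call. Over all genes, 1.96% were called by the brightest probe set. By the brightest probe set the median over the 9 was 0.08. There 3 stood higher at an unadjusted limma p under 0.05 and no gene lower, where 18% of all probe sets stood in either direction. Pam encodes the enzyme that gives CGRP and adrenomedullin the amide at their end. Its log2 signal went from 8.47 to 9.40, or 0.93 higher on the log2 scale (SE 0.07, adjusted p = 1.89e-07). The place of Pam relative to Hdac4 was not examined here, and a link of its rise to these peptides was not tested. The carboxypeptidase Cpe stood at 0.01 and Pcsk1n, an inhibitor of a prohormone convertase, at 0.13 (adjusted p = 0.114).

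Markers of the vessel cells in which Calcrl and Ramp2 are best known gave no call. Of 19 endothelial markers none passed in limma at any of 30 probe sets. By the brightest probe set 1 was higher at an unadjusted p under 0.05, and the median was 0.03. A dimmer probe set of Flt1 stood at 0.17 (adjusted p = 0.0933). Vwf stood at 0.22 (adjusted p = 0.213), Emcn at −0.14, Esam at 0.08 and Abcb1a at 0.10. Their mean log2 level ran from 7.50 to 7.66 in WT and from 7.52 to 7.73 in HDAC4 KO brains. Of 12 mural cell markers none passed in limma at any of 24 probe sets. By the brightest probe set 1 was higher and 1 lower at an unadjusted p under 0.05 (median −0.02). There Abcc9 stood at −0.18 (adjusted p = 0.168), Tagln at 0.11, Vtn at −0.11 and Cnn1 at 0.11. Dimmer probe sets stood at −0.31 for Rgs5 (adjusted p = 0.106), −0.39 for Abcc9 (adjusted p = 0.122) and 0.12 for Cspg4 (adjusted p = 0.151). The mean level of the mural markers ran from 7.44 to 7.60 in WT and from 7.46 to 7.61 in HDAC4 KO brains.

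Hypoxia response genes, to which Adm belongs, did not pass either (14 measured). By the brightest probe set the median was 0.00, with 1 higher and 2 lower at an unadjusted p under 0.05 in limma. Slc2a1, the glucose transporter of the barrier, stood at 0.15 (adjusted p = 0.0604), Ankrd37 at −0.13 (adjusted p = 0.112), Vegfa at −0.11 (adjusted p = 0.174) and Ldha at 0.07. Markers of cholinergic and motor neurons, some of which make CGRP, gave no call among 9 measured (none at an unadjusted p under 0.05 in limma by the brightest probe set), with a median of −0.10. Nefm stood at −0.13, Hoxb4 at −0.13, Hoxc4 at −0.54 (adjusted p = 0.480) and Mnx1 at 0.07. Nefm, Hoxb4 and Hoxc4 are not particular to these neurons. Chat stood at 0.02, Slc18a3 at 0.03 and Slc5a7 at −0.10, each below the array median in every array. Only 2 of the 9 genes lay above the array median in every array, which limits what this list can show.

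**Figure D5:**
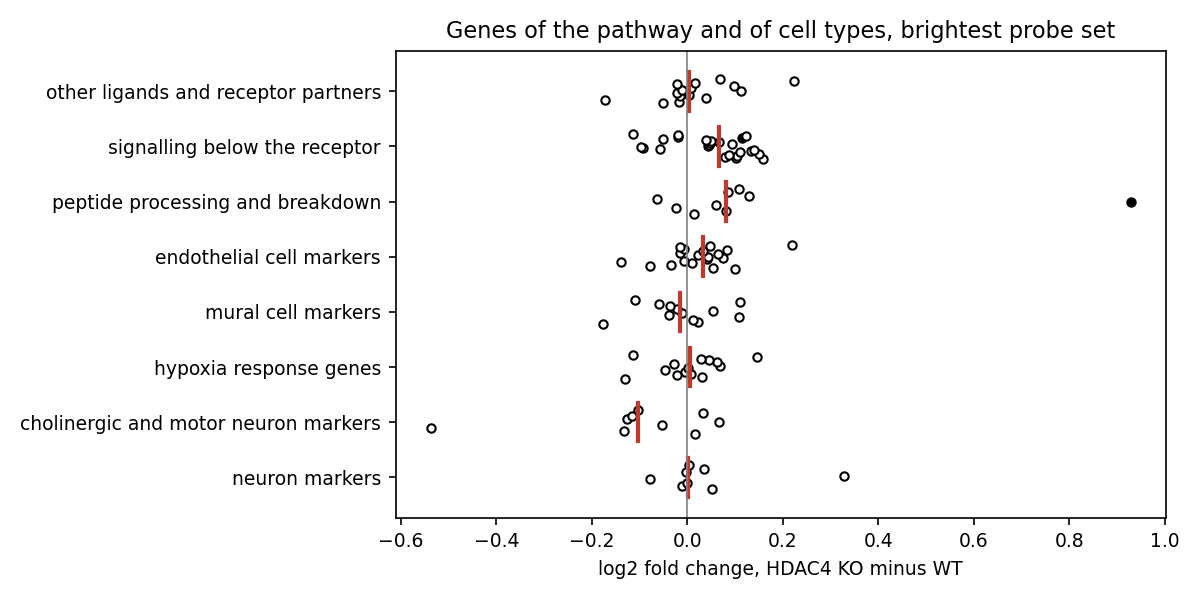
Log2 fold change (HDAC4 KO minus WT) of each listed gene at its brightest probe set. Filled points passed at an adjusted p under 0.05, which are Pam at 0.93 and Prkacb at 0.11, and red bars are medians, between −0.10 and 0.08.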

How the data were processed

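Per the labels and the study's methods, biotinylated cRNA was made from 200 ng of total RNA (GeneChip 3′ IVT Express Kit) and hybridised to the arrays, and chips with a high median normalised unscaled standard error were excluded. The authors deposited log2 signals, 1 per probe set and array; how they were summarised and normalised from the probes the sources used here do not give. The 45037 probe sets that are not controls were fitted with limma 3.58.1 in R 4.3.3 (lmFit and eBayes, no covariate), with Benjamini-Hochberg adjustment over all of them and a threshold of 0.05. A fit with 4 groups gave the differences by sex. Differences within arrays were tested by two-sided permutation with 100000 resamples. The number of arrays limits the precision, and the arrays were 10 per genotype. Symbols came from GEO's platform annotation, and the brightest probe set of a gene was that with the highest mean signal over the 20 arrays. Promoters and gene order came from RefSeq GRCm38.p6; the files name no genome build. The model was tested on simulated data.

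The members and lists were chosen with earlier results of these data known, and the neuron markers were added after the files were seen. All members were named with every probe set. From each list the genes with a called probe set were named, or otherwise up to 4 by p at the brightest. Receptor partners, subunits and some cholinergic markers were named for their role. The lists were other ligands and receptor partners, signalling below the receptor, peptide processing and breakdown, endothelial, mural, and cholinergic and motor neuron markers, hypoxia response genes and neuron markers. Alternatives were the methods' t-test, a Welch test, moderated variants, sex, the 3′ minus 5′ signal, a replicate block, other scaling, dim probe sets left out, the brightest probe set alone, and arrays left out.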

Additional observations from a re-analysis of the deposited data

Results flagged for a closer look

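Of 22 groups of 10 arrays, one per member probe set and genotype, 3 held an array far from the rest by Dixon's test (critical value 0.466), which chance gives in about 1 of 20 groups. At the dim Calcrl probe set 1418489_a_at, WT replicate 2 had a log2 signal of 3.47 with the nearest WT array at 3.72, a gap of 0.593 of the range. At the same probe set HDAC4 KO replicate 10 had 4.32 with the nearest at 3.90 (0.544 of the range). Calcb was 3.90 in WT replicate 1 with the nearest at 4.98 (0.649 of the range). Without these arrays, each in turn, the log2 fold changes were 0.01 (adjusted p = 0.981 from limma), −0.02 (adjusted p = 0.913) and −0.39 (adjusted p = 0.180).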

How the results depend on the processing

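The count of 2 called member probe sets became 0 with the 3′ minus 5′ covariate, 1 with dim probe sets left out (the dim Ramp1 probe set is then not tested), 1 with only the brightest probe set of each gene (fewer tested) and 1 without the 3 arrays against their sex label, and lay between 2 and 3 when single arrays were left out. The brightest Ramp1 probe set passed in 32 of 33 alternatives (log2 fold change 0.41 to 0.50, adjusted p from 0.00772 to 0.0503) and the second in 29 of 31 (0.35 to 0.42). Signs turned only at values near 0. Calcrl 1418489_a_at stood at −0.0111 with the 3′ minus 5′ covariate, −0.0114 without WT replicate 8 and HDAC4 KO replicate 10, −0.00683 without the 3 arrays, and from −0.0187 to 0.0675 with single arrays left out. Adm2 stood at 0.00352, 0.0323 and 0.00215 in the same order, and from −0.0438 to 0.00848. The cause was not tested. Of all probe sets 927 were called, but 43 with the 3′ minus 5′ covariate, 1674 with dim ones left out, 1501 with array weights, 517 with the brightest alone, 327 without WT replicate 8 and HDAC4 KO replicate 10, 415 without the 3 arrays, and from 351 (without WT replicate 2) to 1715 (without HDAC4 KO replicate 2) with single arrays left out. The share of higher calls was 51.1%, and ranged from 32.5% under the replicate block to 60.8% with the methods' t-test, 62.2% with the Welch test and 74.5% with the brightest probe set of each gene. The shared replicate numbers do not pair the arrays: 1 of 10 pairs had a correlation of deviations above 0.1, and 1 WT array correlated best with its own number. With the replicate block 948 were called and both Ramp1 calls held (adjusted p = 0.0301 and 0.0319). Dim probe sets, which include 7 of the 11, limit what can be said of Calcb, Adm and the other Ramp1 and Calcrl probe sets.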
